A study of Mus musculus with 16 samples.

Results

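Aminoacyl-tRNA synthetases join each amino acid to its own transfer RNA, so that the ribosome can build it into protein. The transcripts of 36 synthetase genes were followed in mouse hearts, 20 for enzymes of the cytosol and 16 for those of the mitochondrion. The rule that picks the genes is the name of the enzyme. Of the 36, 34 were measured among 22180 genes, namely 18 of the cytosolic and all 16 of the mitochondrial ones. The only probe set that carries Aars (alanine) also names Exosc6, and Dars (aspartate) has no probe set of its own in the platform annotation, so neither has a value below. The methionine gene Mars appears under its newer symbol Mars1.

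The hearts came from C57Bl/6J mice of 2 genotypes, each on 1 of 2 diets, with 4 mice in each of the 4 groups. Wild-type mice (WT) were compared with Clock delta 19/delta 19 mice, which carry that mutant allele on both chromosomes (called Clock mice here), on standard chow (SC) or on a high-fat diet (HFD). All mice were 32 weeks old, had eaten their diet for 24 weeks, and were killed 7 hours into the light phase. The allele is carried by the whole animal and all hearts were taken at the same hour, so neither the clock of the heart cells alone nor a daily rhythm can be read from these data. The design asks what the mutation and the diet do to heart transcripts and whether the mutation changes the response to the diet.

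RNA of each heart, 500 ng, was read on its own Affymetrix array. The deposited values are logarithms centred on the median of each probe set over the 16 arrays, taken here as log2 with positive for more transcript, and they hold no abundance. For this reason the tissue could not be checked against its marker genes and synthetases could not be ranked by level. Every value below is a log2 difference from the gene's median over the 16 arrays, or a difference between group means of it with the standard error of the limma fit after the ± sign. A gene was called when its Benjamini-Hochberg adjusted p over all 22180 genes was under 0.05. The labels number the mice of a group as biological replicates, and the p-values rest on the spread between them. In a whole heart, fewer cells of a type and less RNA per cell cannot be told apart.

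A few arrays stood apart. WT SC replicate 4 was the lowest of its group for 21 of the 34 synthetase genes, against 28.7% of all genes. Its mean over 9 E-box genes of the clock, which the CLOCK protein drives, was -0.0026, between the other WT arrays (0.62 to 1.02) and the Clock arrays (-0.42 to -0.11). WT SC replicate 2 had the highest mean of interferon-response genes (0.77) and of macrophage markers (0.36). It was the lowest of its group for 9 of the 34 synthetase genes, against 26.1% of all genes. WT HFD replicate 3 was the lowest of its group for 17 of the 34, against 26.4% of all genes, and WT HFD replicate 4 the highest of its group for 22. Counts of called synthetases, and differences of some single genes, are given with and without such arrays. Counts of highest and lowest groups, signs, groups without overlap and pairs, and medians over genes, are given with all arrays only.

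Synthetases fall into classes I and II by the fold of the catalytic domain, and in the cytosol several of them sit together in the multisynthetase complex on scaffold proteins. Mitochondria make part of their proteins themselves and import a separate set of synthetases, encoded in the nucleus mostly by genes whose symbols end in 2. Gars and Kars serve both compartments, and the mitochondrion has no glutaminyl-tRNA synthetase: the glutamate enzyme charges that transfer RNA as well, and an amidotransferase then completes the amino acid. When transfer RNAs run uncharged, the kinase GCN2 phosphorylates the initiation factor eIF2, which favours translation of the transcription factor ATF4. ATF4, with C/EBP proteins as partners, is known to raise genes of amino acid uptake and synthesis and many cytosolic synthetases through a composite element in their promoters. The heart depends on steady mitochondrial translation, and inherited defects of mitochondrial synthetases such as AARS2 cause cardiomyopathy.

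Promoter windows of RefSeq genes (GRCm38.p6, 250 bases before to 50 after the start) were found for 27 of the 36 listed genes, 13 cytosolic and 14 mitochondrial. They were searched on both strands for the composite element, TGATGNAA, and for the E-box CACGTG that the CLOCK and BMAL1 dimer binds. The composite element was present in 5 of 13 cytosolic genes (Aars, Gars, Iars, Tars and Yars) and in 0 of 14 mitochondrial genes, and in 3.97% of 32851 windows. The E-box was present in 4 of 13 cytosolic genes (Aars, Farsb, Iars and Tars) and in 1 of 14 mitochondrial genes (Ears2), and in 7.15% of windows. No match of one motif overlapped a match of the other. Cars, Hars, Lars, Nars, Rars, Vars, Wars, Hars2 and Pars2 had no window and were not searched. The matches of the measured genes are shown with the surrounding bases, so that the elements can be set beside the values below; the matched bases are in capitals, read along the gene's strand, on which the composite element of Gars, Iars and Tars appears as its reverse complement.
Gars, composite element, chr6:55037960-55037989, + strand: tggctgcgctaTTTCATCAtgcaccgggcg
Iars, composite element, chr13:49682126-49682155, + strand: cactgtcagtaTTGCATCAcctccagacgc
Tars, composite element, chr15:11399655-11399684, - strand: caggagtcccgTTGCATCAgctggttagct
Yars, composite element, chr4:129189895-129189924, + strand: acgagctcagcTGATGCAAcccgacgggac
Farsb, E-box, chr1:78488919-78488948, - strand: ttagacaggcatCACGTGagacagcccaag
Iars, E-box, chr13:49682049-49682078, + strand: gaccaatcgccaCACGTGttgtttgtaggt
Tars, E-box, chr15:11399622-11399651, - strand: tccgcctgtggcCACGTGgcgcacgcgcag
Ears2, E-box, chr7:122067048-122067077, - strand: cgcgaaggagccCACGTGtgtgtttctagt
Counted from the start base as 0, the composite element began at -30 in Gars, -15 in Tars, 3 in Yars and 7 in Iars. A match describes letters in a window and was not tested as a binding site.

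Across the 4 groups, synthetase transcripts were most often highest in the Clock hearts on HFD. That group had the highest mean for 23 of the 34 genes, 15 of 18 cytosolic and 8 of 16 mitochondrial, and the lowest mean for 0. WT hearts on SC had the lowest mean for 19. The share of all genes with each group highest or lowest was not counted, so these counts have no background beside them. The median of the 34 genes lay between 0.05 and 0.10 in the 4 Clock HFD arrays. It lay between -0.05 and 0.02 in Clock SC, between -0.09 and 0.06 in WT HFD, and between -0.11 and 0.00 in WT SC, where replicates 2 and 4 were the low ones. The medians of Clock HFD and Clock SC did not overlap, whereas WT HFD replicate 4 (0.06) fell among the Clock HFD arrays. The median of all genes lay between -0.0034 and 0.0047 on every array.

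**Figure D1:**
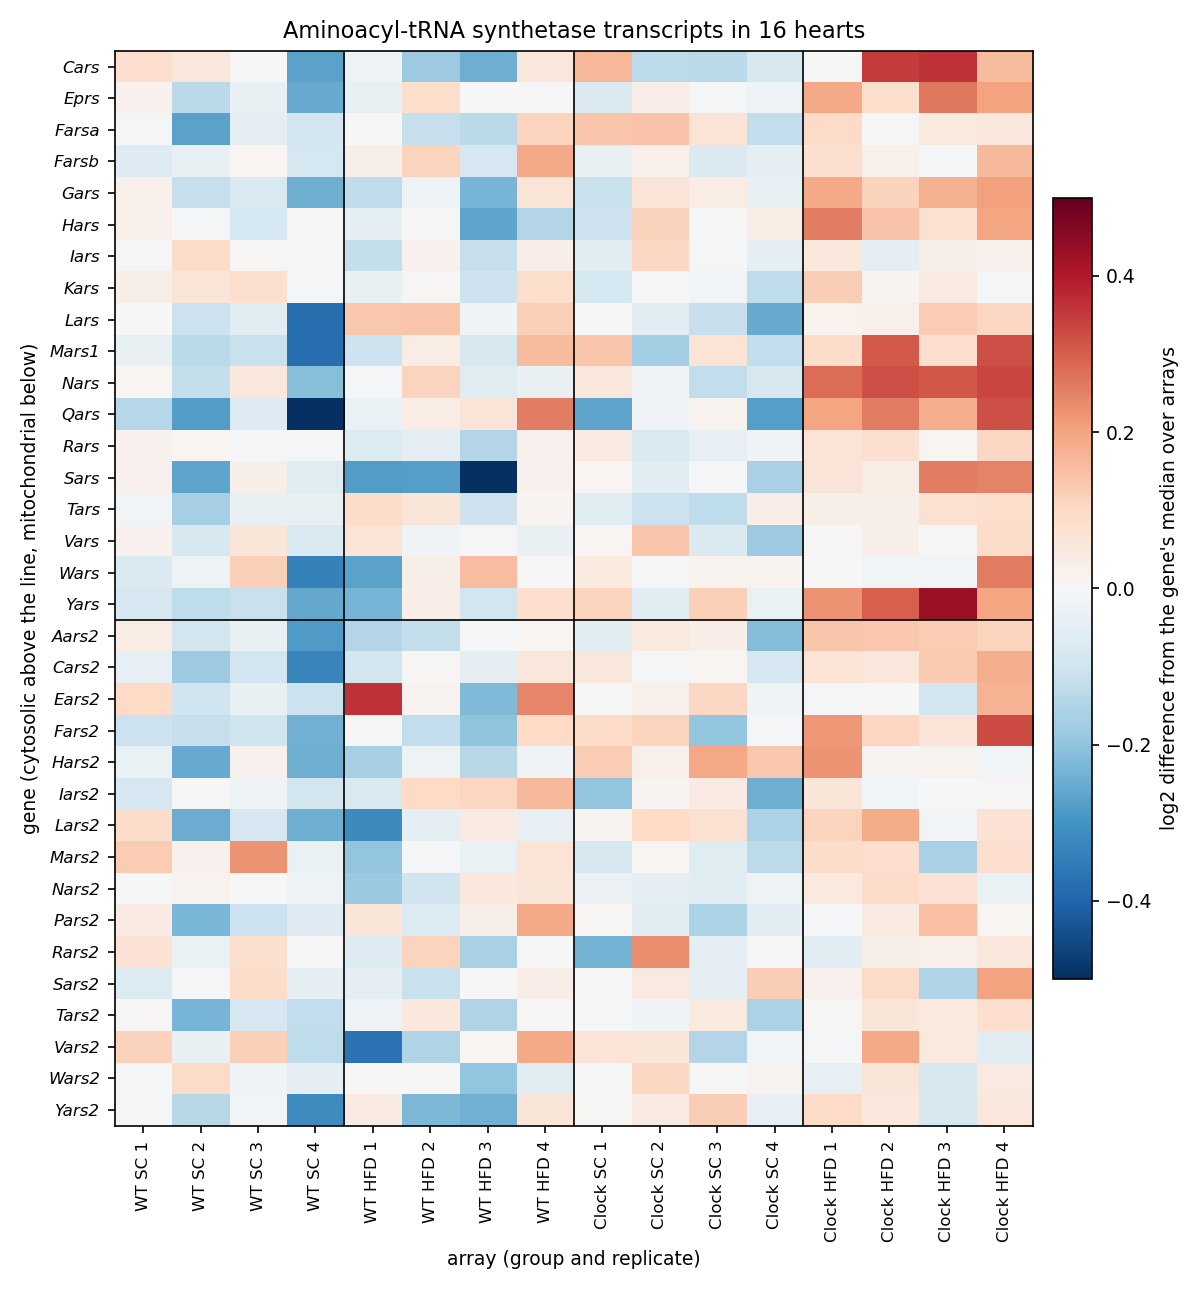
Heat map of the 34 measured synthetase genes (rows, cytosolic above the line and mitochondrial below) on the 16 arrays (columns, by group and replicate). Colour is the log2 difference from the gene's median over the arrays, with colours saturating at 0.5 on either side. The Clock HFD columns are mostly red in the cytosolic rows, and WT SC replicate 4 is the bluest column of its group.

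On HFD 4 synthetases rose in Clock hearts and 0 fell. Of all genes 1.9% were called, 1.13% higher and 0.771% lower. At an unadjusted p under 0.05 there were 12 synthetases, all higher, and 13.5% of all genes. The 4 were the cytosolic enzymes for asparagine (Nars), tyrosine (Yars), histidine (Hars) and serine (Sars), with differences from 0.28 to 0.42. None of the 16 mitochondrial genes was called; 3 of them had an unadjusted p under 0.05.

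Nars stood at 0.28, 0.32, 0.31 and 0.33 in the Clock HFD hearts, and at -0.01, 0.11, -0.06 and -0.04 in the WT HFD hearts (replicates 1 to 4, as in the values that follow). On SC it was 0.06, -0.02, -0.12 and -0.08 in Clock and 0.01, -0.12, 0.05 and -0.21 in WT. All 4 Clock HFD hearts lay above the other 12, and they were the tightest group of the 4 (SD 0.025, n = 4). The difference from WT on HFD was 0.31 ± 0.06, or 1.24-fold (limma, adjusted p = 0.00974). It passed without any single array, with adjusted p from 0.00499 to 0.0364.

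Yars stood at 0.22, 0.30, 0.43 and 0.20 in Clock HFD and at -0.23, 0.03, -0.09 and 0.08 in WT HFD. On SC it was 0.11, -0.06, 0.12 and -0.03 in Clock hearts and -0.08, -0.13, -0.11 and -0.26 in WT hearts. The genotypes did not overlap on either diet. On HFD the difference was 0.34 ± 0.07, 1.27-fold (limma, adjusted p = 0.0201). Without WT HFD 1 or 3 or Clock HFD 2 or 3 it missed the threshold, the adjusted p over single arrays left out ranging from 0.0165 to 0.0746. It also missed it with the mean of the immediate early genes as a covariate (0.31, adjusted p = 0.0823; 0.0141 to 0.0823 over the settings other than single arrays left out). These genes, a class switched on rapidly when cells are stimulated, lay above 0 for 22 of 24 in this comparison, with a median of 0.28. Among them 1 was called higher (Egr2, by 0.47) and 1 lower (Ier3, by 0.64). Their part in the result was not tested beyond that covariate.

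Hars stood at 0.26, 0.14, 0.07 and 0.20 in Clock HFD and at -0.05, 0.00, -0.26 and -0.15 in WT HFD. On SC it was -0.10, 0.11, 0.00 and 0.04 in Clock and 0.02, -0.01, -0.09 and 0.00 in WT. The genotypes separated on HFD and overlapped on SC, and WT HFD 3 was the lowest heart. The HFD difference was 0.28 ± 0.06, 1.22-fold (limma, adjusted p = 0.0241). It missed the threshold without WT HFD 3 or 4 or Clock HFD 1, 2 or 4 (range over single arrays left out 0.0181 to 0.0775).

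Sars had the largest difference and the widest spread. It stood at 0.06, 0.04, 0.25 and 0.25 in Clock HFD and at -0.28, -0.28, -0.53 and 0.02 in WT HFD. On SC it was 0.01, -0.05, -0.01 and -0.16 in Clock and 0.02, -0.27, 0.03 and -0.06 in WT. Both the high Clock values and the low WT values entered the HFD difference, and WT HFD 4 lay just below the lowest Clock heart. The difference was 0.42 ± 0.10, 1.34-fold (limma, adjusted p = 0.0341). Leaving out WT HFD 1, 2 or 3 or Clock HFD 2, 3 or 4 ended the call (range over single arrays left out 0.00618 to 0.106), and so did the fit of the 8 HFD arrays alone (adjusted p = 0.0842). In that fit of 8 arrays Nars alone of the synthetases was called, as it was without WT HFD 3 and without Clock HFD 2.

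**Figure D2:**
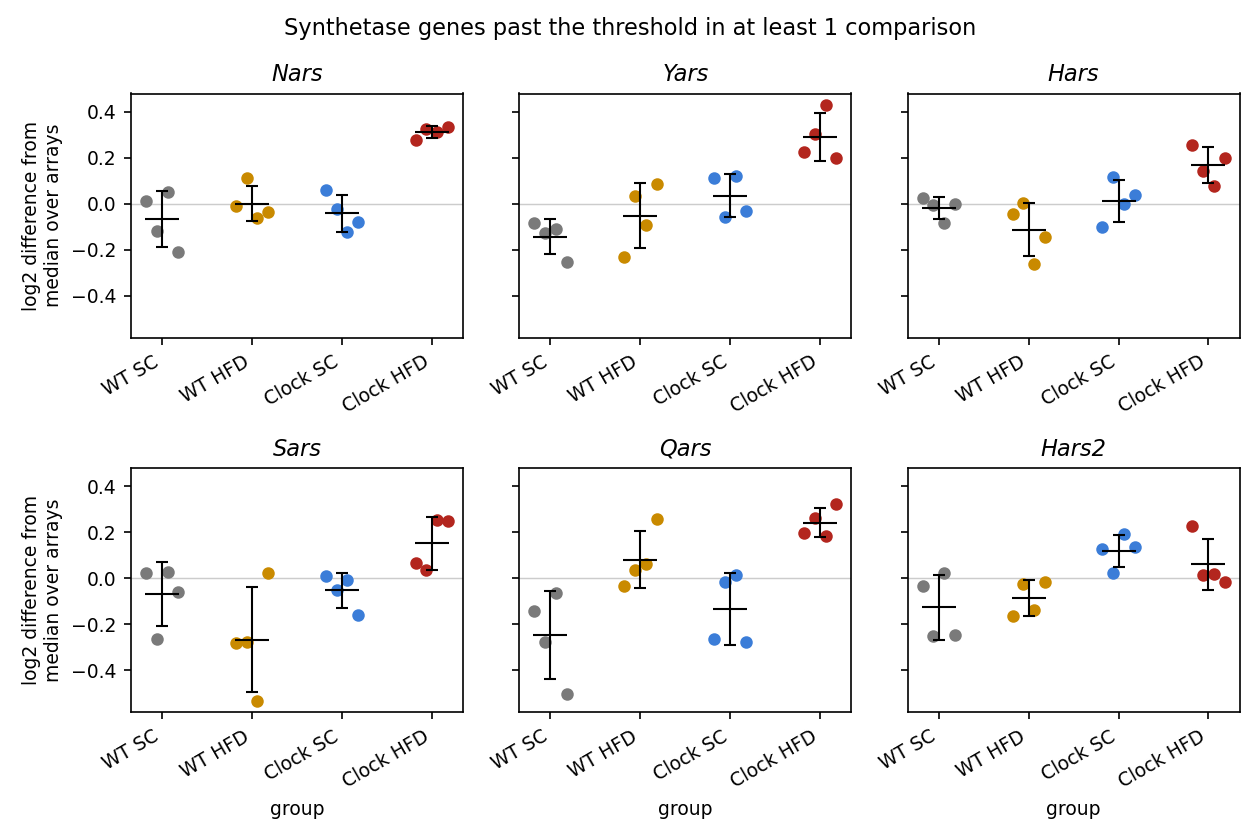
Each panel shows 1 of the 6 synthetase genes called in at least 1 comparison, with the log2 difference from the gene's median on the vertical axis and the 4 groups on the horizontal axis. Points are hearts and bars are the group mean ± SD (n = 4); the Clock HFD hearts lie above all others for Nars, and WT SC is the lowest group for Qars.

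The cytosolic synthetases outside the multisynthetase complex held all 4 of the calls. Their 11 differences on HFD were all above 0 with a median of 0.25, against 0.13 for the 7 measured enzymes of the complex, of which 0 were called and 6 lay above 0. The median over all genes was 0.00 and 50.2% of all genes lay above 0. Next to the called genes outside the complex came Gars (glycine) at 0.25 ± 0.07 (limma, adjusted p = 0.0655), whose groups did not overlap, and Cars (cysteine) at 0.31 ± 0.10 (limma, adjusted p = 0.137). Gars passed in 4 of the other settings, for instance without WT SC replicate 4. Within the complex the values were 0.20 for Mars1 (methionine), 0.17 for Eprs (glutamate and proline), 0.16 for Qars (glutamine), 0.13 for Rars (arginine), 0.06 for Iars (isoleucine), 0.05 for Kars (lysine) and -0.02 for Lars (leucine). The remaining free enzymes had 0.08 for Farsa and 0.00 for Farsb, the subunits of the phenylalanine enzyme, 0.08 for Wars (tryptophan), 0.04 for Tars (threonine) and 0.03 for Vars (valine).

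Whether this difference between free and complexed enzymes exceeds the spread between genes was not tested, and the grouping was made after the values were seen. By catalytic fold, 1 of 18 class I genes and 3 of 15 class II genes were called, with medians of 0.10 and 0.09; Eprs, which holds both folds, was left out of that count. Of the 4 measured genes with the composite element shown above, Yars (0.34) was called, and Gars had 0.25, Iars 0.06 and Tars 0.04. The window of Sars held neither motif, with a difference of 0.42, and Nars and Hars had no window to search. The 4 measured genes with an E-box ran from -0.08 (Ears2) to 0.06 (Iars), and 0 of them were called.

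Of the mitochondrial synthetases 13 of 16 lay above 0 with a median of 0.08, beside 17 of 18 and 0.14 in the cytosolic set; whether the sets differ was not tested. The highest were Fars2 (phenylalanine) at 0.24 ± 0.08 (limma, adjusted p = 0.167), Aars2 (alanine) at 0.19, Lars2 (leucine) at 0.18 and Hars2 (histidine) at 0.15. Aars2 read 0.14, 0.13, 0.13 and 0.11 in Clock HFD and -0.15, -0.12, -0.01 and 0.01 in WT HFD, so that the groups did not overlap, with an adjusted p of 0.196 in limma. Cars2 and Yars2 followed at 0.13 and 0.12, with Vars2 at 0.12, Nars2 at 0.09, Tars2 at 0.08, Sars2 and Mars2 at 0.07, Wars2 at 0.06 and Rars2 at 0.04. Pars2 (0.00), Iars2 (-0.06) and Ears2 (-0.08) lay at or below 0. The 2 probe sets of Nars2 disagreed, with 0.24 and -0.06, and neither was called.

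**Figure D3:**
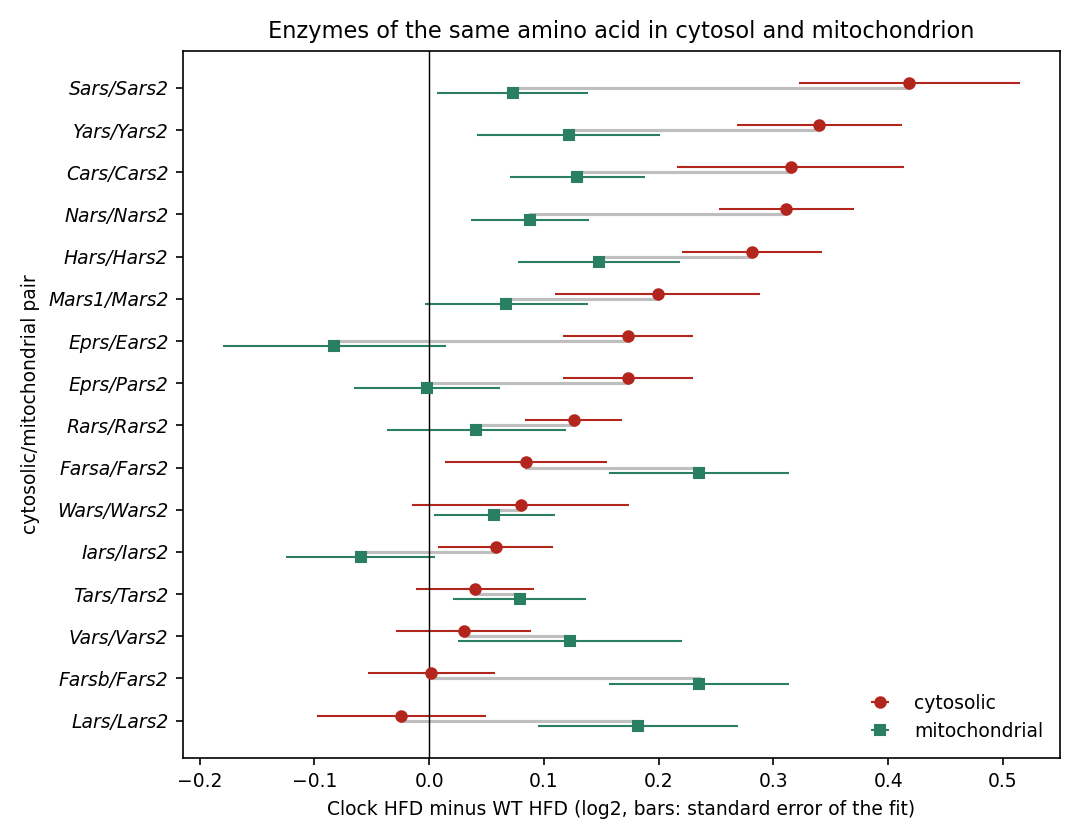
Difference between Clock and WT hearts on HFD (log2, horizontal axis) for the cytosolic (circles) and mitochondrial (squares) enzymes of the same amino acid, with bars for the standard error of the fit. Sars, Yars, Cars, Nars and Hars lie to the right of their mitochondrial partners, and Lars, Vars, Tars and both Fars subunits to the left.

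For the same amino acid, the cytosolic difference was the larger in 11 of 16 pairs, in which Eprs and Fars2 each stand in 2, with a median gap of 0.12. Sars had 0.42 beside 0.07 for Sars2, and Nars had 0.31 beside 0.09 for Nars2, the average of probe sets at 0.24 and -0.06. The order was turned for leucine, with -0.02 for Lars and 0.18 for Lars2. It was also turned for phenylalanine, with 0.08 for Farsa and 0.00 for Farsb beside 0.24 for Fars2. The same held for valine, with 0.03 for Vars and 0.12 for Vars2, and for threonine, with 0.04 for Tars and 0.08 for Tars2.

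In all, 8 synthetases had groups that did not overlap on HFD, with Clock higher in each (Gars, Hars, Nars, Sars, Yars, Aars2, Cars2 and Hars2). That is 8 of 34 beside 5.09% of all genes. In the other direction there were 0, beside 3.8%.

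On SC 0 synthetases were called between the genotypes by limma, beside 0.491% of all genes. At an unadjusted p under 0.05 there were 4 higher and 1 lower, and 9.77% of all genes were past that mark in either direction. Of the 34 genes 23 lay above 0, with a median of 0.03. The smallest p belonged to Hars2, the mitochondrial histidine enzyme, which read 0.13, 0.02, 0.19 and 0.13 in Clock SC and -0.03, -0.25, 0.02 and -0.25 in WT SC. Its lowest Clock heart lay just above the highest WT heart, and WT SC 2 and 4 were its lowest hearts. The difference was 0.25 ± 0.07 (limma, adjusted p = 0.174). Yars, with the values given above, had 0.18 ± 0.07 (adjusted p = 0.401 in limma).

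Cars2, for cysteine in the mitochondrion, read 0.06, 0.00, 0.01 and -0.08 in Clock SC and -0.04, -0.18, -0.09 and -0.33 in WT SC. The groups overlapped, and the difference of 0.16 ± 0.06 had an adjusted p of 0.351 in limma. Without WT SC 2 and 4 the differences were 0.13 for Hars2, 0.13 for Yars and 0.06 for Cars2. Yars and Hars2 were the 2 genes whose Clock hearts all lay above the WT hearts on SC, beside 2.58% of all genes. Nars2 was the 1 gene with all Clock hearts below, beside 2.38% of all genes, by a difference of -0.04 that averages its 2 probe sets at 0.12 and -0.20.

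Averaged over both diets, 3 synthetases rose in Clock hearts and 0 fell. Of all genes 3.88% were called, 2.44% higher and 1.44% lower. Yars rose by 0.26 ± 0.05 (limma, adjusted p = 0.00718) and passed without any single array. Nars rose by 0.17 ± 0.04 (limma, adjusted p = 0.0319) and Hars2 by 0.20 ± 0.05 (limma, adjusted p = 0.0351). Hars2 read 0.23, 0.02, 0.02 and -0.02 in Clock HFD and -0.16, -0.02, -0.14 and -0.02 in WT HFD, and 3 of those Clock hearts lay just above the highest WT hearts. Nars and Hars2 each passed in 6 of 16 fits that left out 1 array, and with WT SC 2 and 4 both left out Yars was the 1 synthetase called. Single arrays whose loss ended the call of Nars were WT SC 2 and 4, WT HFD 1, 3 and 4, Clock SC 1 and 2 and Clock HFD 2, 3 and 4. With the immediate early covariate Nars missed the threshold too (0.17, adjusted p = 0.0629; 0.0253 to 0.159 over those settings), and Fars2, Hars, Hars2 and Yars were called. For Hars2 the single arrays were WT SC 2 and 4, WT HFD 1 and 3, Clock SC 1, 3 and 4 and Clock HFD 1, 2 and 3.

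**Figure D4:**
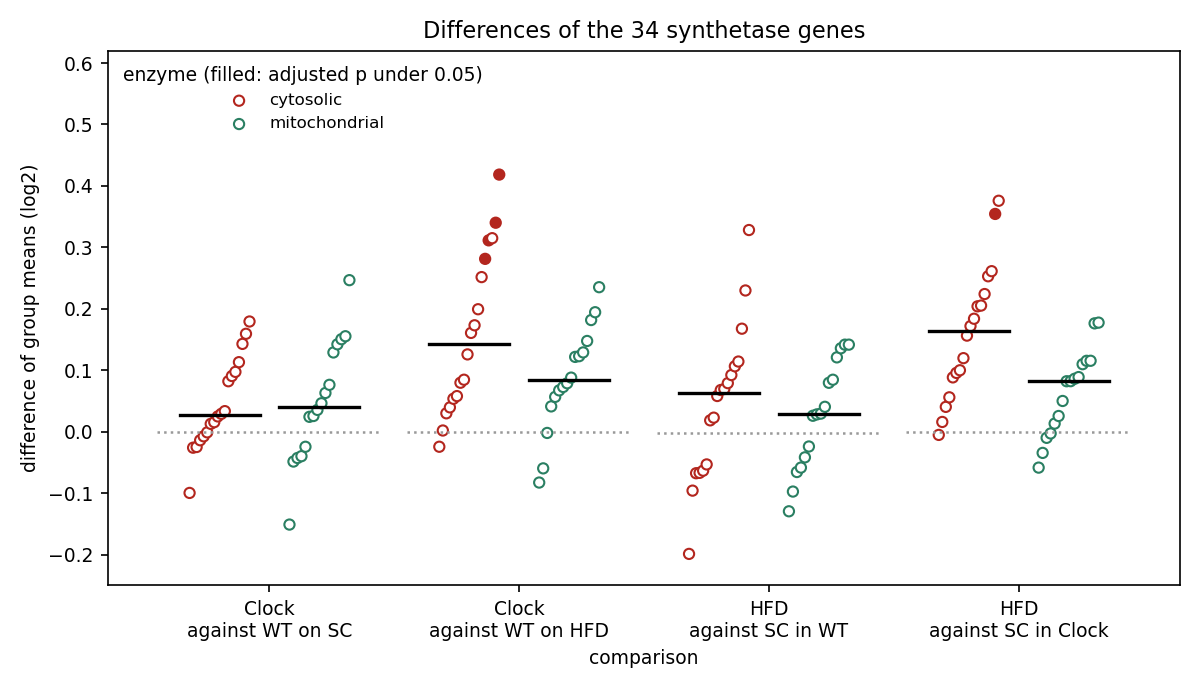
Differences of group means (log2, vertical axis) of the 34 synthetase genes in the 4 simple comparisons (horizontal axis), cytosolic in red and mitochondrial in green. Black bars are the medians of each set, dotted lines the median of all genes, and filled circles the genes with an adjusted p under 0.05; the cytosolic medians are 0.14 for Clock against WT on HFD and 0.16 for HFD against SC in Clock.

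The diet comparison was made within each genotype. In Clock hearts 1 synthetase rose on HFD, and 0 fell. Of all genes 0.0902% were called, 0.0496% higher and 0.0406% lower, and 12 synthetases and 8.42% of all genes had an unadjusted p under 0.05. It was Nars, at 0.35 ± 0.06 or 1.28-fold (limma, adjusted p = 0.0304). The call was lost without Clock SC 2, 3 or 4 or any of the 4 Clock HFD arrays, the adjusted p over single arrays left out ranging from 0.0163 to 0.107. In all, 29 of 34 genes lay above 0, 17 of 18 cytosolic with a median of 0.16 and 12 of 16 mitochondrial with a median of 0.08. The HFD hearts lay above the SC hearts without overlap for 9 genes (Eprs, Gars, Lars, Nars, Qars, Sars, Yars, Aars2 and Cars2), beside 2.89% of all genes, and below them for 0, beside 2.42%. The cytosolic difference was the larger in 13 of 16 pairs of the same amino acid, against 7 of 16 for the diet in WT hearts.

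Qars, the glutamine enzyme of the complex, had the largest diet difference in both genotypes. It stood at 0.20, 0.26, 0.18 and 0.32 in Clock HFD and at -0.26, -0.02, 0.02 and -0.28 in Clock SC. In WT hearts it stood at -0.03, 0.04, 0.06 and 0.26 on HFD and at -0.14, -0.28, -0.07 and -0.50 on SC. The diets did not overlap in either genotype, and WT SC 4 was the lowest of the 16 hearts. The differences were 0.38 ± 0.09 in Clock (limma, adjusted p = 0.140) and 0.33 ± 0.09 in WT (limma, adjusted p = 0.147), and neither passed. Without WT SC 2 and 4 the WT difference was 0.18.

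Eprs, which charges transfer RNAs for glutamate and proline, read 0.19, 0.09, 0.26 and 0.20 in Clock HFD and -0.07, 0.03, -0.01 and -0.03 in Clock SC. In WT it read -0.04, 0.09, 0.00 and 0.00 on HFD and 0.02, -0.13, -0.04 and -0.25 on SC. The diets separated in Clock hearts and overlapped in WT hearts. The difference in Clock was 0.21 ± 0.06 (limma, adjusted p = 0.243).

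In WT hearts 0 synthetases were called between the diets by limma, beside 0.352% of all genes. At an unadjusted p under 0.05 there were 4 higher and 0 lower, and 10.7% of all genes were past that mark. Of the 34 genes 22 lay above 0 with a median of 0.04. Qars was the 1 gene whose HFD hearts all lay above the SC hearts, beside 2.8% of all genes, and 0 lay below, beside 2.5%. Lars, the leucine enzyme of the complex, read 0.13, 0.14, -0.02 and 0.12 in WT HFD and 0.00, -0.11, -0.06 and -0.38 in WT SC. WT HFD 3 lay within the SC hearts, and the difference was 0.23 ± 0.07 (limma, adjusted p = 0.219), or 0.12 without WT SC 2 and 4. Lars read 0.02, 0.03, 0.13 and 0.10 in Clock HFD and 0.00, -0.05, -0.11 and -0.25 in Clock SC. Cars2 read -0.09, 0.00, -0.05 and 0.06 in WT HFD, and its difference of 0.14 had an adjusted p of 0.381 in limma. The lowest of the 34 was Sars at -0.20 ± 0.10 (limma, adjusted p = 0.479).

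Averaged over the genotypes, 2 synthetases rose on HFD and 0 fell. Of all genes 1.54% were called, 0.812% higher and 0.726% lower. Qars rose by 0.35 ± 0.06, 1.28-fold (limma, adjusted p = 0.0127), and Nars by 0.21 ± 0.04, 1.16-fold (limma, adjusted p = 0.0193). Both passed without any single array. Without WT SC 2 and 4 together neither passed, at 0.28 (adjusted p = 0.0518) for Qars and 0.16 (adjusted p = 0.0839) for Nars. Eprs at 0.16 ± 0.04 (limma, adjusted p = 0.0590) and Lars at 0.20 ± 0.05 (limma, adjusted p = 0.0671) came next. The immediate early genes were lower on HFD in several arrays, with means of -0.65 to 0.04 in WT HFD and -0.43 to 0.40 in Clock HFD against -0.08 to 0.31 on SC. With that mean as a covariate, Qars had 0.35 (adjusted p = 0.0855) and Nars 0.22 (adjusted p = 0.100), and 0 synthetases were called.

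The interaction asks whether the diet difference was larger in Clock than in WT hearts. By limma 0 synthetases and 0 of all 22180 genes were called, and 7 synthetases and 1122 genes (5.06%) had an unadjusted p under 0.05. Nars had the smallest p, with 0.29 ± 0.08 (limma, adjusted p = 0.760), followed by Sars with 0.40 ± 0.14 and Hars with 0.25 ± 0.09 (both with an adjusted p of 0.868 in limma). That Nars was called for the diet in Clock and not in WT hearts is therefore no shown difference between the genotypes. The simple comparisons share groups with each other and are no independent evidence of one another.

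The probe set shared by Aars and Exosc6, an exosome subunit, cannot be given to either gene. It read 0.06, -0.03, 0.02 and 0.06 in WT HFD and -0.15, -0.21, -0.17 and -0.16 in WT SC. The diets did not overlap in WT hearts, and the difference was 0.20 ± 0.05 (limma, adjusted p = 0.0901). Between the genotypes on HFD it differed by 0.04. On SC it read -0.09, 0.02, 0.07 and -0.04 in Clock hearts, all above the WT hearts. That difference was 0.16 ± 0.05 (limma, adjusted p = 0.201).

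Other genes of amino acid response and translation were counted beside the synthetases. Of 30 listed genes of the ATF4 response 28 were measured. On HFD 5 rose and 1 fell in Clock hearts, beside 1.13% and 0.771% of all genes. Called or not, 20 of the 28 lay above 0 and 8 below. Mthfd2, a mitochondrial enzyme of folate metabolism, read 0.87, 0.84, 0.98 and 0.88 in Clock HFD and -0.02, 0.02, -0.12 and -0.25 in WT HFD. On SC it read 0.47, 0.18, -0.18 and 0.17 in Clock and -0.26, -0.25, -0.37 and -0.22 in WT. Clock HFD lay above all other hearts by a wide margin. The difference on HFD was 0.98 ± 0.10 (limma, adjusted p = 5.47e-05), and the diet difference in Clock hearts was 0.73 ± 0.10 (limma, adjusted p = 0.00666).

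Atf4 itself read 0.27, 0.18, 0.28 and 0.13 in Clock HFD and -0.22, -0.17, -0.07 and -0.39 in WT HFD, with no overlap. It rose by 0.42 ± 0.08 (limma, adjusted p = 0.00938). Ddit4, an inhibitor of mTORC1 signalling, rose by 0.89, the transcription factor Atf5 by 0.44 and Aldh18a1, of proline synthesis, by 0.38. Cth, which makes cysteine, fell by 0.34 (limma, adjusted p = 0.0429). Asns, the asparagine synthetase that makes the amino acid NARS loads, had 0.27 ± 0.07 (limma, adjusted p = 0.0606), and the ATF4 targets Trib3 and Psat1 had 0.02 and -0.02. The list's median was 0.16 on HFD and 0.02 on SC. On SC 2 rose (Ddit3 by 0.42 and Ddit4 by 0.55) and 0 fell, beside 0.239% and 0.252% of all genes. Ddit3 had 0.01 on HFD and was not called there. For HFD against SC, 1 rose in Clock hearts (Mthfd2), beside 0.0496% of all genes. In WT hearts 2 fell, beside 0.167%, the amino acid carriers Slc7a1 by 0.67 and Slc38a2 by 0.45. In the average over diets 9 were higher and 1 lower in Clock, beside 2.44% and 1.44% of all genes. The 6 with the smallest p were Mthfd2, Ddit4, Atf5, Atf4, Cth (the lower one) and Gpt2. In the average over genotypes Mthfd2 and Ddit4 were higher on HFD, and Slc7a1 and Slc38a2 lower, beside 0.812% and 0.726% of all genes.

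The machinery around the synthetases showed few calls. Of the scaffold genes of the complex 2 of 3 were measured (Aimp1 and Eef1e1) and 0 were called in any of the 7 comparisons. The same held for 10 measured genes of eIF2, its kinases and eIF2B. Among 13 factors of mitochondrial translation Gatc fell in Clock hearts on HFD, by 0.43 ± 0.08 (limma, adjusted p = 0.0125), and by 0.30 in the average over diets. GATC is a subunit of the amidotransferase that makes mitochondrial glutaminyl-tRNA from the product of EARS2; Ears2 had -0.08 on HFD and was not called. Mtrf1, a mitochondrial release factor, rose by 0.25 in the average diet difference. Among 8 cytosolic elongation genes Eef2k, whose kinase inhibits elongation factor 2, fell by 0.25 in the average genotype difference. Called or not, 6 of these 8 lay above 0 for Clock against WT on HFD, with a median of 0.08. So did 10 of the 13 mitochondrial factors (median 0.06), 7 of the 10 eIF2 genes (median 0.03) and 1 of the 2 scaffold genes. The mitochondrial synthetases had 13 of 16 and 0.08 there. For the diet in WT hearts 12 of the 13 mitochondrial factors lay above 0, with a median of 0.12.

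Markers of some cell types differed between the genotypes as well. Of the macrophage, lymphocyte, smooth muscle and pericyte, and adipocyte markers 0 were called in any comparison. Of 10 endothelial markers 4 rose in Clock hearts on HFD (Cldn5, Esam, Robo4 and Egfl7), beside 1.13% of all genes, and 9 lay above 0. Their mean per array ran from -0.29 to -0.21 in WT HFD, from -0.03 to 0.17 in Clock HFD, from -0.09 to 0.06 in WT SC and from 0.06 to 0.18 in Clock SC. In the average over diets 6 endothelial and 3 fibroblast markers of 10 each, and 1 cardiomyocyte marker of 10 (Ryr2), were higher. Of all genes 2.44% were called higher in that average. On HFD 0 cardiomyocyte markers were called between the genotypes, and 9 of 10 lay above 0 with a median of 0.07. The cardiomyocyte mean per array ran from -0.08 to -0.01 in WT HFD and from 0.01 to 0.08 in Clock HFD. It ran from -0.13 to 0.04 in WT SC and from -0.09 to 0.06 in Clock SC. Between the diets in Clock hearts, where Nars was called, 0 endothelial markers were called and 4 of 10 lay above 0. In WT hearts 0 of 10 lay above 0 on HFD, and Cldn5 was called, lower by 0.81 (limma, adjusted p = 0.0482). In the average diet difference 3 endothelial markers (Kdr, Emcn and Egfl7) fell, beside 0.726% of all genes. The cardiomyocyte marker Ryr2 rose there by 0.15 (limma, adjusted p = 0.0335), beside 0.812% of all genes. The part of these markers in the synthetase differences was not tested. Of 9 E-box genes of the clock, 4 fell in Clock hearts on SC and 8 on HFD, beside 0.252% and 0.771% of all genes. Dbp had differences of -2.05 on SC and -2.73 on HFD.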

How the data were processed

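Transcripts were measured on 16 Affymetrix arrays, 4 mice a group. The deposited table holds log2 values that the authors put on 1 scale and centred on each probe set's median; base 2 and a positive sign for more transcript were assumed; upstream software and summarisation: not given in the sources used here. Gene names came from the platform annotation. Probe sets with 1 symbol (23521 of 34351) were averaged per gene. R 4.3.3 with limma 3.58.1 (lmFit, then eBayes; 1 mean per group, 12 residual degrees of freedom, two-sided) was run over 22180 genes in 7 comparisons, after a test on simulated data. Centred values allow no filter on dim genes. Array number limits precision. Members and lists were chosen with earlier results of these data known; the role groups and motifs were chosen after values were seen. Values in every array are given for synthetases past the threshold and, where fewer than 3 pass, for the 3 with the smallest p; of other lists up to 6 passing genes are named, and further genes were chosen after seeing their values. Other settings were probe sets taken singly, robust eBayes, array weights, repeated quantile normalization, the 8 arrays compared, a replicate block, an immediate early covariate, shared probe sets, WT SC 2 and 4 left out and each array left out. Figures used Python 3.11.15, pandas 2.3.3, numpy 2.4.6 and matplotlib 3.10.9. The labels do not say whether replicate numbers pair mice. Same-numbered arrays of different groups had a mean correlation of deviations of -0.0047 (range -0.15 to 0.16, 24 pairs). Differently numbered arrays had 0.0017 (range -0.20 to 0.21, 72 pairs).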

Additional observations from a re-analysis of the deposited data

Results flagged for a closer look

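The 9 synthetases chosen to have their single values given made 36 groups of 4 hearts. Each group was searched for a heart far from the other 3, by the gap to its nearest neighbour over the range of the group. Chance passes this rule, Dixon's test, in about 1 of 20 groups. Of the 36 groups 2 passed, close to that share, so neither heart is shown to be more than chance. Clock HFD replicate 1 read 0.23 for Hars2, with the other 3 hearts of its group between -0.02 and 0.02. WT HFD replicate 3 read -0.018 for Lars, with the other 3 hearts between 0.12 and 0.14.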

How the results depend on the processing

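Of 22 differences of 9 synthetases recomputed in the other settings, 0 changed sign; the other synthetase differences were not recomputed one by one. Counts of called synthetases moved as follows. For Clock against WT on HFD the 4 became 1 in the fit of only the 8 arrays compared, and 1 to 5 with single arrays left out. For HFD against SC in Clock the 1 became 0 in the fit of 8 arrays and 0 with the replicate block, and 0 to 1 with single arrays left out. For the average genotype difference the 3 became 5 with repeated quantile normalization and 1 without WT SC 2 and 4, and 1 to 6 with single arrays left out. For the average diet difference the 2 became 4 with quantile normalization, 0 with the immediate early covariate and 0 without WT SC 2 and 4, and 2 to 4 with single arrays left out. For Clock against WT on SC, HFD against SC in WT and the interaction the count was 0 in every setting run.

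The labels do not say that replicate numbers pair the mice, and 7 of 16 arrays, not all, correlated best with their own number. With the replicate block 3 synthetases were called for Clock against WT on HFD, 2 for the average genotype difference and 2 for the average diet difference. Sars on HFD had an adjusted p of 0.0543, Hars2 in the average genotype difference 0.0508 and Nars for diet in Clock hearts 0.0681. Over all genes, the counts that moved by more than 1.5 times were 109 on SC (38 with 8 arrays, 49 without WT SC 2 and 4, 49 to 144 with single arrays left out), 422 for genotype on HFD (241 to 490), 78 for diet in WT (41 with the block, 12 with the covariate, 15 with 8 arrays, 11 without WT SC 2 and 4, 28 to 90), 20 for diet in Clock (53 with array weights, 36 with quantile normalization, 12 with the block, 37 with shared probe sets, 7 with 8 arrays, 6 to 27), 861 for average genotype (507 without WT SC 2 and 4) and 341 for average diet (105 with the covariate, 141 without WT SC 2 and 4, 218 to 329). ATF4-response genes called in the average genotype difference went from 10 to 6 without WT SC 2 and 4. The cause was not tested.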
